A study of Mus musculus with 36 samples.

Results

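Blood of mice given a total of 3 Gy of a mixed field of neutrons and x-rays, of which 5% (0.15 Gy) was neutron dose, was compared with blood of unirradiated mice 7 days later. The members were the 6 arrays titled as 5% neutron at day 7 and the 6 titled as control at day 7, 12 of the 36 arrays of the series, with 1 mouse per array. All 12 mice were male C57BL/6J, irradiated or sham-irradiated at 8 to 10 weeks of age, and blood was taken by cardiac puncture into an RNA-preserving lysis solution. Globin transcripts were depleted from every sample before labelling. The other groups of 6 received 3 Gy of x-rays, mixed fields with 15% or 25% neutron, or 0.75 Gy of neutrons alone, and the neutron source also delivered some photons.

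X-rays deposit energy sparsely along their tracks, whereas neutrons set free recoil protons that deposit it densely. Resting B and T lymphocytes are among the most radiation-sensitive cells of the body and die within hours to days of an acute exposure. Mature red cells and granulocytes resist such doses, but the marrow that makes them is injured and, in the weeks after a survivable dose, refills the circulation with young cells that still hold RNA. In whole blood, fewer cells of a type and less RNA per cell cannot be told apart.

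Levels are log2 intensities of 1 probe per gene above the median of its array. A gene was called at an unadjusted p under 0.001 and an adjusted p under 0.05 in limma with Benjamini-Hochberg adjustment, which gives every adjusted p below. Of 15076 genes tested, 3476 were called, 23.1% of all, of which 1359 were higher (9.01%) and 2117 lower (14%) at 5%. Lower genes were 60.9% of the calls. That share depended on the scaling. It was 75.9% of 4088 calls on the submitters' own normalized table, 67.8% of 3633 under quantile normalization, and all of 265 after the normexp background correction. It was only 51.6% of 3344 calls when arrays were scaled to their 75th percentile. When they were scaled on probes above background on all arrays it was 52.2% of 3665. Under normexp centred on the genes tested it was 54.6% of 1232. The median called gene rose 3.35-fold or fell 2.79-fold, and the median log2 difference over all genes was -0.08.

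The groups were separated by processing as well as by exposure. Slides were scanned in 4 sessions, and 5 of 6 control arrays and 5 of 6 arrays at 5% lay in sessions that held none of the other group, so that for them session and exposure cannot be told apart. Only control replicate 3 and 5% replicate 5 shared a slide. Spike-in RNA stood 8.80 ± 0.64 log2 units (SD, n = 6) above the array median at 5% and 7.42 ± 0.23 in controls (exact two-sided permutation test, p = 0.00216, the smallest that 6 against 6 allows). The mean number of probes well above background was 18615 at 5% and 20063 in controls (exact two-sided permutation test, p = 0.0974).

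RNA of liver genes was present in several bloods of both groups. The mean level of the 8 liver markers ran from 0.34 to 10.32 over the controls and from 0.39 to 12.73 at 5%, and 5% replicates 3, 5 and 6 lay above every control. Albumin, made by hepatocytes, ran from -2.16 over a median of 6.37 to 11.3 in controls and from -1.43 over 12.3 to 14.2 at 5%. None of the 8 was called, and all 8 had a positive difference with a median of 3.27. Fitted with this level as a covariate, 3360 genes were called (48.9% lower), and without these 3 arrays 4283 (47.7% lower). Its part in the results below was not tested beyond the values given beside them.

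**Figure D1:**
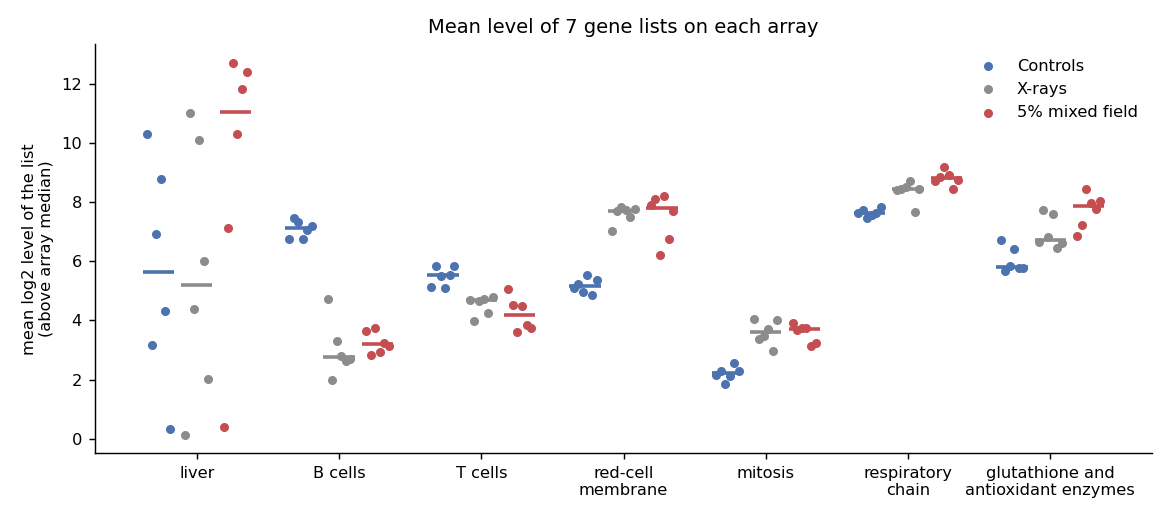
Mean log2 level above the array median of 7 gene lists on each array of controls, x-rays and 5% mixed field, with 1 point per array and a line at the group median. Liver markers spread widely in every group, whereas B-cell markers at 5% (2.84 to 3.75) lay below all controls (6.75 to 7.48).

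B-cell genes gave the largest falls. B cells carry an antigen receptor with the signalling chains CD79A and CD79B, survive on the cytokine BAFF, and present antigen on MHC class II. All 23 tested markers of B cells, of 25 listed, were called lower, each on 6 arrays at 5% below all 6 controls, against 13.8% of all genes that were lower without overlap. The 23 differences ran from -7.34 to -1.26 with a median of -3.86, beside -0.08 over all genes.

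The largest fall was of Fcer2a, the low-affinity IgE receptor CD23 of mature follicular B cells (probe at chr8:3682343-3682402 of mm9). Its log2 level ran from 6.02 over a median of 6.49 to 7.12 in controls and from -1.52 over -1.05 to 0.63 at 5%. Every array at 5% lay more than 5 log2 units below every control, and the probe was significantly above background on 5 of the 6 but well above it on only 1, so the fold rests on dim signals. The log2 difference was -7.34 ± 0.36 (SE), a 162-fold fall (adjusted p = 3.15e-08).

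Tnfrsf13c, the receptor for the survival cytokine BAFF, ran from 6.47 over 6.88 to 7.04 in controls and from 1.07 over 1.79 to 2.77 at 5%. The groups did not overlap, and the fall was 32.0-fold (log2 difference -5.00, adjusted p = 5.97e-08). A dimmer Tnfrsf13c probe, with a mean of 2.18 in controls, differed by -1.77. Fcmr, the Fc receptor for IgM, fell 26.8-fold from a control median of 9.36 to 4.70 (adjusted p = 1.16e-07). Fcrla, an Fc receptor-like protein kept inside B cells, also fell 26.8-fold (adjusted p = 1.26e-07). Ebf1, a transcription factor that fixes B-cell identity, went from 5.18 to a median of 0.31 and was well above background on 3 of 6 arrays at 5% (29.1-fold, adjusted p = 3.47e-07). Cd79b, the signalling chain of the receptor itself, kept a median of 6.28 at 5% against 10.63 in controls, a 19.7-fold fall with the groups apart (adjusted p = 3.47e-07).

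Most immunoglobulin probes fell. The probe annotated to the immunoglobulin delta chain (ENSMUST00000192250, chr12:114654277-114654336 of mm9), the IgD of naive B cells, ran from 7.51 over 8.07 to 9.05 in controls and from 2.46 over 2.75 to 3.19 at 5%, a 42.8-fold fall (adjusted p = 3.05e-08). Of 70 tested probes described as immunoglobulin segments, 60 were called lower and 0 higher, with a median of -3.49, and 7 of the 10 not called had a positive difference. Near-identical variable segments can share hybridization, so their probes are not separate genes in the strict sense.

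Antigen receptor signalling and co-receptors followed. Of 16 tested genes of B-cell receptor signalling 11 were called lower and 0 higher (median -1.88). Cr2, the complement co-receptor CD21, fell 16.9-fold (log2 difference -4.08, adjusted p = 4.11e-07). Blnk, the adaptor that links the receptor to phospholipase C, ran from 8.40 over 8.74 to 9.29 in controls and from 4.28 over 4.85 to 5.94 at 5% (14.6-fold, adjusted p = 4.66e-07). Vpreb3, a chaperone of the pre-B receptor chains, fell 20.1-fold from 7.87 to a median of 3.86 (adjusted p = 1.46e-06). The 300-base promoter windows of Blnk and Vpreb3, and of no other of the 17 B-cell markers with a window in the RefSeq table, held the octamer ATGCAAAT, the motif of the factors OCT1 and OCT2, on either strand, beside 1.97% of 27025 genes. Both are shown because they carry that motif, in capitals on the strand read here, before the gene start (GRCm38.p6).
Blnk, chr19:40994222-40994361, minus strand: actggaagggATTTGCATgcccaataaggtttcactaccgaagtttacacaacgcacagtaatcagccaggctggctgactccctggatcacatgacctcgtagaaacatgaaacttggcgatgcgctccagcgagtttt
Vpreb3, chr10:75948240-75948299, plus strand: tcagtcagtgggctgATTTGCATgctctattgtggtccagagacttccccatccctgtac

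Genes outside the B-cell lists with the largest falls included Chst3, a sulfotransferase that modifies chondroitin, and Il4i1, an amino acid oxidase of antigen-presenting cells. Chst3 ran from 6.23 over 6.78 to 7.35 in controls and from 0.45 over 0.87 to 1.67 at 5%. With no overlap, it fell 56.7-fold (log2 difference -5.82 ± 0.26 SE, adjusted p = 2.71e-08). Il4i1 fell 26.4-fold from a control median of 7.35 to 2.54 (adjusted p = 2.71e-08).

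MHC class II genes, which load and display peptides to helper T cells, all fell: 11 of 11 tested were called lower, without overlap, with differences from -4.39 to -1.60 and a median of -2.75. The 3 largest were accessory chains. H2-Ob, a chain of the loading inhibitor H2-O, ran from 6.99 over 7.58 to 7.97 in controls and from 2.79 over 3.02 to 3.75 at 5% (20.9-fold, adjusted p = 7.51e-08). Its partner H2-Oa fell 16.3-fold (adjusted p = 1.16e-07). H2-DMb2, a chain of the peptide exchanger H2-DM, fell 17.0-fold (adjusted p = 1.34e-07).

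Receptors and cytokines that guide lymphocytes to lymphoid tissue were lower for 10 of 16 tested genes, and 0 were higher (median -1.87). Ccr6, a chemokine receptor of B cells and of some T cells, ran from 6.03 over 6.67 to 7.04 in controls and from 1.63 over 2.10 to 2.65 at 5%, a 21.7-fold fall (adjusted p = 7.51e-08). Cxcr5, the receptor that leads B cells to follicles, fell 11.3-fold (adjusted p = 9.14e-06). Lta, the lymphotoxin that maintains those follicles, fell 9.01-fold (adjusted p = 2.82e-06) and was well above background on only 1 array at 5%. On all 7 scalings tried the B-cell, MHC class II and homing medians all stayed below that of all genes.

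**Figure D2:**
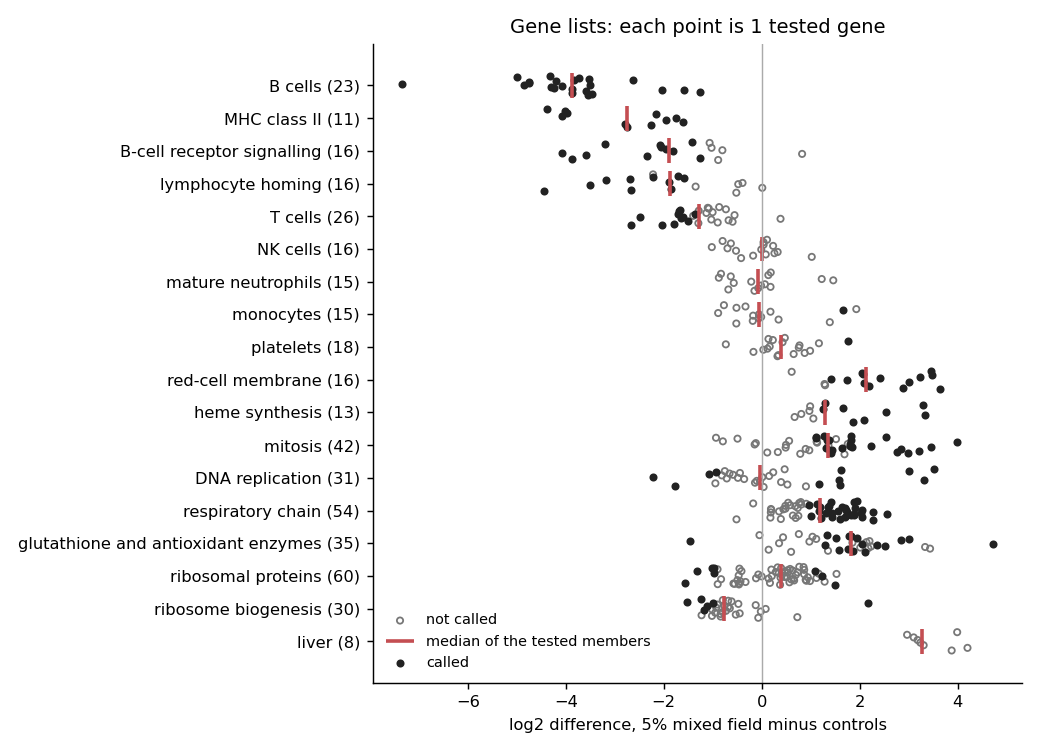
Log2 difference, 5% mixed field minus controls, of each tested gene of 18 lists, with filled points for called genes and a red line at the list's median. B-cell and MHC class II members all lie below 0, and the 16 red-cell membrane members all lie above it.

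Fewer of the T-cell markers passed the test. Of 26 tested markers 11 were called lower (42.3%, beside 14% of all genes) and 0 higher. Their differences ran from -2.68 to 0.39 with a median of -1.29. Ccr7, the homing receptor of naive T cells and B cells, ran from 8.40 over 8.71 to 9.24 in controls and from 5.23 over 5.97 to 7.29 at 5%, without overlap (6.40-fold lower, adjusted p = 3.68e-05). Cd8a, the co-receptor of cytotoxic T cells, fell 5.56-fold (adjusted p = 0.00012). Bcl11b, a transcription factor of T-cell identity, fell 4.07-fold (adjusted p = 0.000253). The count of called T-cell markers was 7 without the 3 arrays high in liver RNA and 19 on the submitters' own normalized table. Chosen after their values were seen, Cd3e, a chain of the T-cell receptor complex, had a difference of -0.68 (adjusted p = 0.0761) and Cd4, the co-receptor of helper T cells, 0.39 (adjusted p = 0.29).

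Natural killer cells and mature myeloid cells gave few calls. None of 16 natural killer markers was called, and their median difference was 0.02. The member with the smallest p was Prf1, the pore-forming protein of cytotoxic granules, at -0.80 (adjusted p = 0.0408). None of 15 mature neutrophil markers was called (median -0.07), and Mxd1, a MAX-binding repressor, came nearest at 1.46 (adjusted p = 0.00939). It was called without 5% replicate 3 (1.74) or 5 (1.69) and without the 3 arrays high in liver RNA (2.18). Another Mxd1 probe differed by 0.51. Monocyte markers had 1 called higher of 15 (6.67%) and platelet markers 1 of 18 (5.56%), beside 9.01% of all genes. Those lists had medians of -0.06 and 0.38. The single monocyte call was lost without 5% replicate 1, 2 or 3 or control replicate 1, 2, 3 or 6, and without 5% replicate 5 monocyte calls were 2 and platelet calls 3. The signs of the neutrophil, monocyte, platelet and natural killer medians relative to all genes changed with the scaling.

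Dendritic-cell markers had 2 of 7 called lower (28.6%, beside 14% of all genes). Tcf4, the factor of plasmacytoid dendritic cells, fell 2.88-fold (adjusted p = 0.000528), and Ccr9, a gut-homing receptor that such cells carry, 3.62-fold (adjusted p = 0.000389). Of 7 plasma-cell markers 2 were called lower (28.6%) and 1 higher (14.3%), beside 14% and 9.01% of all genes. The lower ones were Mzb1, a chaperone also made by marginal-zone B cells (6.72-fold, adjusted p = 1.24e-05), and Irf4, a factor shared with activated lymphocytes (4.71-fold, adjusted p = 2.76e-05). Of 10 tested eosinophil and basophil markers 2 were called higher (20%) and 1 lower (10%), beside 9.01% and 14% of all genes. The lower one was Il5ra, the interleukin-5 receptor chain of eosinophils and of some B cells (4.19-fold, adjusted p = 0.000257). Of 15 progenitor markers the 2 called were lower (13.3%, beside 14% of all genes). They were Sox4, a factor also found in early lymphocytes (4.54-fold, adjusted p = 9.77e-06, well above background on 1 array at 5%), and Ly6a, the antigen Sca-1, which mature lymphocytes share (2.93-fold, adjusted p = 0.00084). Another Sox4 probe had a log2 difference of -0.83, beside -2.18 for the probe used.

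Some granule genes of immature neutrophils rose. Of 8 secondary granule genes tested 3 were called higher (37.5%, beside 9.01% of all genes), with a median of 0.30 and 2 negative differences. Ngp, neutrophilic granule protein, ran from -2.51 over -1.36 to 0.34 in controls and from 0.77 over 3.57 to 4.77 at 5%, and rose 22.7-fold without overlap (adjusted p = 0.000257). Ltf, lactoferrin, ran from -2.02 over -0.63 to 0.70 and from 0.26 over 3.76 to 5.18, and rose 16.3-fold with overlap (adjusted p = 0.000662). Both were well above background on only 1 control, so their folds rest on dim control signals. The mean level of the 8 at 5% was lowest in replicate 3 (2.86) and otherwise 4.07 to 5.98, beside 2.41 to 4.02 in controls. Of 3 tested primary granule genes none was called, and the nearest was Prtn3, proteinase 3, at 1.73 (adjusted p = 0.0142), which was well above background on no control.

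Red-cell genes rose together. During their last divisions erythroid precursors make heme, iron carriers and a spectrin-based membrane skeleton, and the reticulocyte that enters the blood still holds those messengers. All 16 tested genes of the red-cell membrane and skeleton had a positive difference, 13 were called higher and 0 lower, and the median was 2.14. In 9 of the 16 every exposed array lay above every control, as it did in 7.73% of all genes. Add2, beta-adducin, ran from 0.68 over 1.44 to 2.45 in controls and from 3.55 over 5.51 to 6.06 at 5%, a 12.5-fold rise without overlap (adjusted p = 1.97e-05). Rhd, a subunit of the Rh blood group complex, rose 11.2-fold (adjusted p = 7.01e-06) and Tmod1, which caps the skeleton's actin filaments, 11-fold (adjusted p = 7.56e-05). The list's mean level on arrays at 5% was 7.71 to 8.22 in 4 mice, 6.76 in replicate 5 and 6.22 in replicate 3, beside 4.87 to 5.54 in controls, so that every exposed mouse lay above every control. Replicates 3 and 5 were also 2 of the 3 mice high in liver RNA.

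Ahsp, the chaperone of free alpha-globin, was among the genes with the largest rises. It ran from 8.14 over 8.86 to 9.56 in controls and from 12.33 over 13.69 to 14.16 at 5%, 24.1-fold higher (log2 difference 4.59 ± 0.35 SE, adjusted p = 6.23e-07). The lowest 5% values again were those of replicates 3 and 5. Bcl2l1, the survival protein BCL-XL on which late erythroblasts depend, rose 4.67-fold (adjusted p = 0.000489). It was the only called gene of 12 of the BCL2 family (8.33%, beside 9.01% of all genes called higher). Without 5% replicate 3 that family had 2 genes called higher.

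Of 13 heme synthesis genes 8 were called higher and 0 lower, and all 13 differences were positive (median 1.29). Cpox, coproporphyrinogen oxidase, ran from 2.67 over 3.51 to 4.24 in controls and from 6.19 over 6.95 to 7.23 at 5% (10.1-fold, adjusted p = 1.51e-06). Urod, uroporphyrinogen decarboxylase, rose 9.82-fold (adjusted p = 6.28e-06). The first enzyme of the pathway in red cells, Alas2, chosen after its values were seen, had a difference of 0.67 (adjusted p = 0.0834). Under the normexp background correction the list's median turned to -0.40, where that of all genes was -1.21, and it lay 0.81 above all genes.

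Of 10 tested erythroid transcription factors 4 were called higher (40%) and 2 lower (20%), beside 9.01% and 14% of all genes. The list's median of 0.47 lay 0.55 above that of all genes, but under normexp it lay 0.16 below. Klf1, the activator of adult globin, ran from 0.23 over 0.51 to 0.77 in controls and from 1.52 over 3.09 to 3.68 at 5% (5.48-fold, adjusted p = 6.71e-05). Zfpm1, the GATA1 cofactor FOG1, rose 5.59-fold (adjusted p = 2.7e-05) and E2f2, a cell-cycle factor of late erythroblasts, 5.02-fold (adjusted p = 0.0003). Bcl11a, which silences fetal globin and is also a B-cell factor, fell 8.68-fold (adjusted p = 1.47e-06). Of 11 iron genes 4 were called higher (36.4%, beside 9.01% of all genes), and only 2 without control replicate 3. Tfrc, the transferrin receptor that brings iron into erythroblasts, was 3.12-fold higher (log2 difference 1.64, adjusted p = 0.00188) but lost its call without control replicate 3 (1.51), and its difference was -0.08 under normexp. Other Tfrc probes differed by 2.59 and 2.81.

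**Figure D3:**
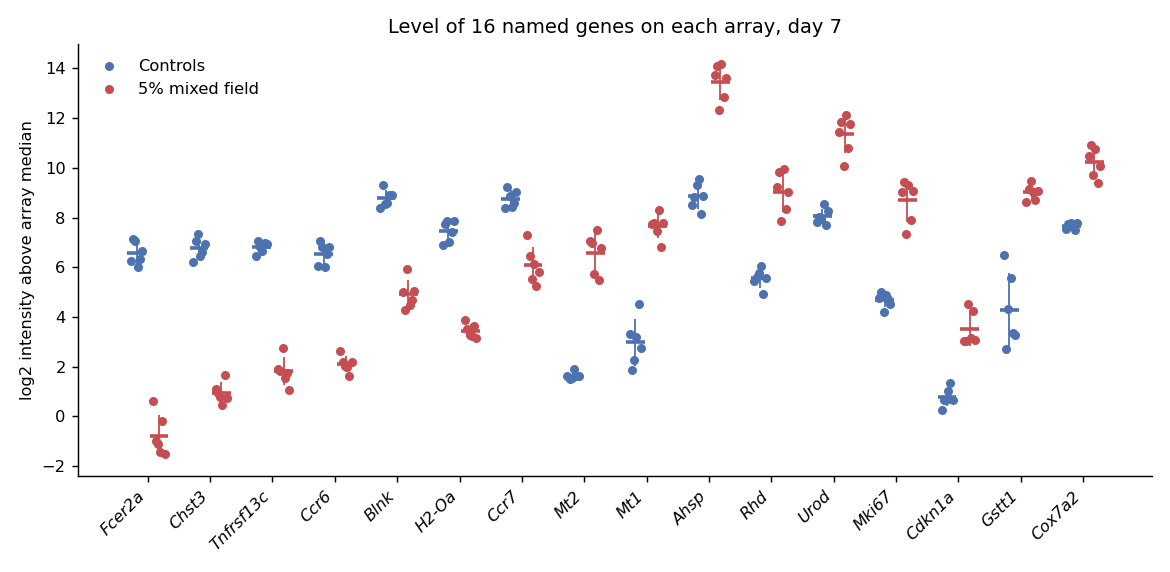
Log2 level above the array median of 16 named genes on each array, with 6 points, the mean as a line and the SD as a bar for controls and for 5% mixed field. The 9 genes at the right, from Mt2 on, are higher at 5% and the 7 at the left lower, and in no gene do the groups overlap.

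Metallothioneins are small cysteine-rich proteins that bind zinc and copper, made under metal load, oxidative stress and inflammation. Mt2 ran from 1.52 over 1.62 to 1.90 in controls and from 5.49 over 6.86 to 7.49 at 5%, and rose 30.6-fold (log2 difference 4.94 ± 0.32 SE, adjusted p = 1.97e-07). It was the largest rise among called genes well above background on all 12 arrays. Mt1, its neighbour on chromosome 8, ran from 1.85 over 2.96 to 4.53 and from 6.82 over 7.75 to 8.29, 25.4-fold higher (4.66 ± 0.40 SE, adjusted p = 1.76e-06). In neither gene did the groups overlap, and the other metallothionein tested, Mt3, was not called (-0.71, adjusted p = 0.0183). With the liver level as a covariate the differences were 5.10 and 4.65. A dimmer Mt1 probe, with means of -1.48 in controls and -0.10 at 5%, differed by 1.38.

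The promoters of both are shown because these genes are among the largest rises and carry cores of the metal response element, the site of the zinc-sensing factor MTF1. Cores TGCACNC and TGCGCNC on either strand are in capitals, in the bases before the gene start (RefSeq, GRCm38.p6). All 3 metallothioneins tested held TGCACNC and 2 of them held TGCGCNC, beside 14.2% and 17.0% of all genes.
Mt1, chr8:94179009-94179088, plus strand: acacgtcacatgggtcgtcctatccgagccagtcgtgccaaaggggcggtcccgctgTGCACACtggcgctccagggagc
Mt2, chr8:94172388-94172617, plus strand: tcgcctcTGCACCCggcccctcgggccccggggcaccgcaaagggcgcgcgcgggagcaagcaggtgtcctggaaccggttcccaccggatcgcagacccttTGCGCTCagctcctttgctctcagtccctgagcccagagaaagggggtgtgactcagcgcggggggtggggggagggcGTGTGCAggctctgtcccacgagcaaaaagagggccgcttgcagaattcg

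Many of the mitosis genes tested rose. Nucleated dividing cells are rare in healthy blood, and their messengers are made from late S phase to mitosis. Of 42 mitosis genes tested 23 were called higher and 0 lower, with differences from -0.93 to 4.00, of which 5 were negative, and a median of 1.36, which turned to -0.16 under normexp but lay 1.05 above all genes there. Mki67, the proliferation antigen Ki-67, ran from 4.21 over 4.75 to 5.01 in controls and from 7.34 over 9.05 to 9.44 at 5% (15.9-fold, adjusted p = 2.1e-06). Foxm1, the factor that drives mitotic genes, rose 10.9-fold (adjusted p = 9.85e-07), although it was well above background on only 3 of the controls. Ccnb2, cyclin B2, ran from 4.16 to 4.60 in controls and from 6.32 to 8.35 at 5%, 9.25-fold higher (adjusted p = 4.7e-06). Cdca3, which triggers mitotic entry, was outside that list and rose 22.6-fold from 2.12 to 6.71 (adjusted p = 3.47e-07). All 4 were higher on every exposed array than on any control.

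The cell-cycle homology region TTTGAA and the CCAAT box mark promoters of such genes. On either strand of the 300-base window, TTTGAA was in 23 of 34 mitosis genes with a window (67.6%), beside 20.2% of all 27025 genes, and CCAAT in 24 (70.6%), beside 41.1%. Of the 18 called genes with a window 12 held TTTGAA and 16 held CCAAT. The promoters of a cyclin and of Ki-67 are shown, with both motifs in capitals, in the bases before the gene start. Ccnb2 held a further TTTGAA just after its start, which is not printed. The order of the motifs differs between the printed stretches.
Ccnb2, chr9:70421555-70421724, minus strand: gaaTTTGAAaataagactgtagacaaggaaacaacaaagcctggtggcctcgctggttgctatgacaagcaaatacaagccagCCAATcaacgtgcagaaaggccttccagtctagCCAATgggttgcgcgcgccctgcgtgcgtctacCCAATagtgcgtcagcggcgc
Mki67, chr7:135716380-135716569, minus strand: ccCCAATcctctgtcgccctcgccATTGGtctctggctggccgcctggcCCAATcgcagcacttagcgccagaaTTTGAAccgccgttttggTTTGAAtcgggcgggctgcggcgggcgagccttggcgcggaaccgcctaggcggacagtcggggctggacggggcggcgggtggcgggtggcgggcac

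DNA replication genes were mixed, with 7 of 31 called higher (22.6%) and 4 lower (12.9%), beside 9.01% and 14% of all genes. Their median was -0.03. Uhrf1, which keeps DNA methylation after replication, ran from 2.55 over 2.79 to 3.09 in controls and from 5.36 over 6.45 to 7.07 at 5% (11.4-fold, adjusted p = 1.53e-06). Rrm2, the regulated subunit of ribonucleotide reductase, rose 8.04-fold (adjusted p = 1.83e-05). Pold1, the catalytic subunit of DNA polymerase delta, fell 4.62-fold without overlap (adjusted p = 2.42e-05).

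Of 27 double-strand break repair genes 4 were called lower (14.8%) and 1 higher (3.70%), beside 14% and 9.01% of all genes. Their median was -0.35. Atm, the kinase that senses breaks, ran from 1.91 over 2.38 to 2.82 in controls and from -0.08 over 0.07 to 0.69 at 5% (4.33-fold lower, adjusted p = 2.39e-05), with 2 of these 6 arrays well above background. Another Atm probe differed by -1.06. Mdc1, which anchors repair factors at the break, fell 2.99-fold (adjusted p = 0.000141). Of 23 p53 targets 3 were called higher and 3 lower (13.0% each), beside 9.01% and 14% of all genes. Their median was 0.61. Cdkn1a, the cell-cycle inhibitor p21, ran from 0.26 over 0.68 to 1.33 in controls and from 3.04 over 3.13 to 4.54 at 5%, a 6.72-fold rise without overlap (adjusted p = 2.19e-05). Psrc1, a spindle protein, rose 4.37-fold (adjusted p = 7.27e-05) and was well above background on 2 controls. Ddb2, a nucleotide excision repair protein, fell 3.82-fold (adjusted p = 5.38e-05), so that the calls of this list went both ways.

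Many mitochondrial and antioxidant genes rose. Of 54 nuclear-encoded respiratory chain genes 32 were called higher and 0 lower (median 1.19), and the list's mean level was 8.44 to 9.18 at 5% and 7.47 to 7.83 in controls. Quantile normalization called 19, and under normexp the median was -0.89, 0.32 above that of all genes. Cox7a2, a subunit of cytochrome oxidase, ran from 7.50 over 7.71 to 7.79 in controls and from 9.40 over 10.27 to 10.90 at 5% (5.89-fold, adjusted p = 9.48e-06). Ndufa1, of complex I, rose 4.84-fold and Atp5b, the catalytic subunit of ATP synthase, 4.82-fold (adjusted p = 8.67e-05 each).

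Of 35 glutathione and antioxidant genes 16 were called higher and 1 lower (median 1.83, and -0.18 under normexp, where it lay 1.03 above all genes). The list's mean level at 5% was highest in replicates 3 (8.43) and 6 (8.06), which were also high in liver RNA. With the liver level as a covariate 17 were called higher and 1 lower (median 1.44), and without the 3 arrays high in liver RNA 16 and 0 (median 1.34). Gstt1, a glutathione transferase abundant in red cells and liver, ran from 2.70 over 3.83 to 6.51 in controls and from 8.64 over 9.04 to 9.46 at 5%, 26.4-fold higher without overlap (adjusted p = 2.34e-05). With the liver level as a covariate its difference was 4.17. Nqo1, a quinone reductase driven by the factor NRF2, rose 8.10-fold (adjusted p = 2.4e-05) and Mgst3, a microsomal transferase, 7.20-fold (adjusted p = 3.91e-05).

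The integrated stress response slows translation through phosphorylation of initiation factor eIF2 and switches on ATF4 targets. Of 11 tested genes of that response 3 were called higher (27.3%, beside 9.01% of all genes) and 0 lower. The list's median was 1.10, and -0.78 under normexp, where it lay 0.44 above all genes. Atf5, a transcription factor of that response, ran from 5.63 over 5.92 to 7.20 in controls and from 9.45 over 10.32 to 10.80 at 5% (16.4-fold, adjusted p = 1.11e-06). Asns, asparagine synthetase, rose 16.2-fold (adjusted p = 4.06e-06) and Trib3, a pseudokinase that restrains ATF4, 4.98-fold (adjusted p = 9.76e-05). The eIF2 kinases differed among themselves. Eif2ak1, the heme-regulated kinase of erythroid cells, rose 5.74-fold (adjusted p = 9.33e-05). Eif2ak4, which senses uncharged tRNA, fell 3.28-fold (adjusted p = 0.000357) and Eif2ak3, the kinase of the endoplasmic reticulum, 2.94-fold (adjusted p = 0.000226).

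Ribosomal proteins are the protein part of the translation machinery. Of 60 tested ribosomal protein genes, of 79 listed, 5 were called lower (8.33%) and 3 higher (5.00%), beside 14% and 9.01% of all genes, and their median was 0.39. That median lay 0.47 above that of all genes but 0.98 below it on quantile normalization and 0.64 below it under normexp. The list's median itself was negative under both, and also on the submitters' own normalized table. Rpl18 ran from 10.62 over 11.01 to 11.37 in controls and from 8.82 over 9.48 to 9.78 at 5%, a 2.95-fold fall without overlap (adjusted p = 0.000144). Rps18 fell 2.49-fold, also without overlap (adjusted p = 0.000351). The lower count was 7 without 5% replicate 2, 3 without 5% replicate 1, 3 or 5 or control replicate 1, and 2 without 5% replicate 4 or 6 or control replicate 2, 3, 5 or 6. Without the 3 arrays high in liver RNA 2 were called lower and 23 higher.

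Initiation factors and their regulators had 3 of 29 called higher (10.3%) and 4 lower (13.8%), beside 9.01% and 14% of all genes. Their median was -0.26. Eif3e, a subunit of the scaffold that recruits the small ribosomal subunit, fell 2.59-fold (adjusted p = 0.000363). Without 5% replicate 3 the lower count was 10. Of 23 aminoacyl-tRNA ligases 2 were called higher (8.70%) and 1 lower (4.35%), beside 9.01% and 14% of all genes. Without the 3 arrays high in liver RNA the counts were 1 and 6. Nars, for asparagine, rose 3.54-fold (adjusted p = 6.64e-05) and Vars, for valine, fell 2.84-fold (adjusted p = 8.68e-05). Ribosome biogenesis genes had 27 negative differences of 30 and a median of -0.78. Of these genes 5 were called lower (16.7%) and 1 higher (3.33%), beside 14% and 9.01% of all genes. The higher one was Ubtf (2.18), and another Ubtf probe differed by -0.91. That lower count was 16 without 5% replicate 3, whose mean list level of 4.31 stood apart from 3.33 to 3.61 on the other 5, 3 without 5% replicate 4 or control replicate 3, and 2 without 5% replicate 2 or 6 or control replicate 2, 5 or 6. It was 11 without the 3 arrays high in liver RNA.

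Protein degradation genes were mixed. Of 29 ubiquitin-conjugating enzymes and partners 8 were called higher (27.6%) and 4 lower (13.8%), beside 9.01% and 14% of all genes. Their median was 0.40. Ube2s, which extends chains for the anaphase-promoting complex, rose 4.27-fold (adjusted p = 0.0003). Ube2j1 had the largest difference of the list (2.22), and other probes of that gene differed by -0.12 and 1.94. Of 20 proteasome genes 3 were called higher (15%, beside 9.01% of all genes) and 0 lower, and without control replicate 3 only 1 was. The list's median was 0.44. That median was -0.19 on quantile normalization, -0.28 on the submitters' table and -1.36 under normexp.

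Interferon-stimulated genes (median -0.44) had 9 of 33 called lower (27.3%) and 3 higher (9.09%), beside 14% and 9.01% of all genes. The lower count was 5 without control replicate 2 or 6 or without the 3 arrays high in liver RNA. Tap1, which pumps peptides to MHC class I, ran from 3.61 over 3.92 to 4.27 in controls and from 1.25 over 2.27 to 2.58 at 5% (3.47-fold lower, adjusted p = 0.000101). Ifit2, an antiviral effector, fell 3.40-fold (adjusted p = 0.000125). Oas3, a sensor of viral double-stranded RNA, rose 4.11-fold (adjusted p = 0.000247). Of 15 Toll-like receptor genes 2 were called lower (13.3%), beside 14% of all genes. Tlr1, which pairs with TLR2, fell 6.64-fold (adjusted p = 5.31e-06) and Unc93b1, which escorts endosomal receptors, 2.77-fold (adjusted p = 0.000165).

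Other large rises included Apol10a, an apolipoprotein L gene, and some genes with wide spread. Apol10a ran from 3.28 over 3.52 to 4.30 in controls and from 7.14 over 8.86 to 9.28 at 5%, 28.3-fold higher (adjusted p = 6.57e-07). Saa3, a serum amyloid A of the acute phase, ran from 1.49 to 5.83 and from 6.06 to 8.79 (20.4-fold, adjusted p = 0.000369), and Reep6, an endoplasmic reticulum protein, from 1.89 to 7.59 and from 6.99 to 10.16 (21.2-fold, adjusted p = 0.00192). Without the 3 arrays high in liver RNA both lost their call, at 3.28 and 3.34. Reep6 also lost it without 5% replicate 3 (4.08), 5 (4.27) or 6 (4.23).

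Gm9924 and Gm5106, predicted genes on chromosome 5, were 24.8-fold and 23.1-fold higher over the 12 arrays (adjusted p = 0.000454 and 0.000781). Control replicate 3 stood at 9.48 for Gm9924 where the other controls averaged 5.99. Between the 2 arrays that shared a slide the differences were -0.68 and -0.33, against the direction of the groups.

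Detection on or off added a few genes, and those named were chosen after their values were seen. Well above background on all 6 arrays at 5%, and above it on no control, were 3 genes, all of them also among the genes tested above. Of these Nrip3, a nuclear receptor interacting protein, was at least 16.5-fold higher. The reverse held for 13 genes, none of which was among the genes tested. Among these 13 was Crisp3, a secreted cysteine-rich protein, at least 6.24-fold lower. These folds set the mean of the bright group against that of the dim one, with each dim array at the lowest signal that counted as well above background there, or at the probe's own where higher.

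The shared slide gave a comparison within 1 scan session. Over the other 10 arrays 2845 genes were called, and 2739 of them (96.3%) had the same sign between control replicate 3 and 5% replicate 5. Of 1294 called higher 1195 were higher in the pair, with a median pair difference of 1.03 beside 1.85 over the 10 arrays, and of 1551 called lower 1544 were lower, with -1.57 beside -1.62. Over all genes 55.6% of pair differences were negative. Cd79b differed by -4.42 in that pair, Mt2 by 3.93, Ahsp by 3.55 and Mki67 by 3.70. These are 2 mice, with no test. Their mean liver marker levels were 6.93 in control replicate 3 and 11.83 in 5% replicate 5, and the part of that difference was not tested.

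**Figure D4:**
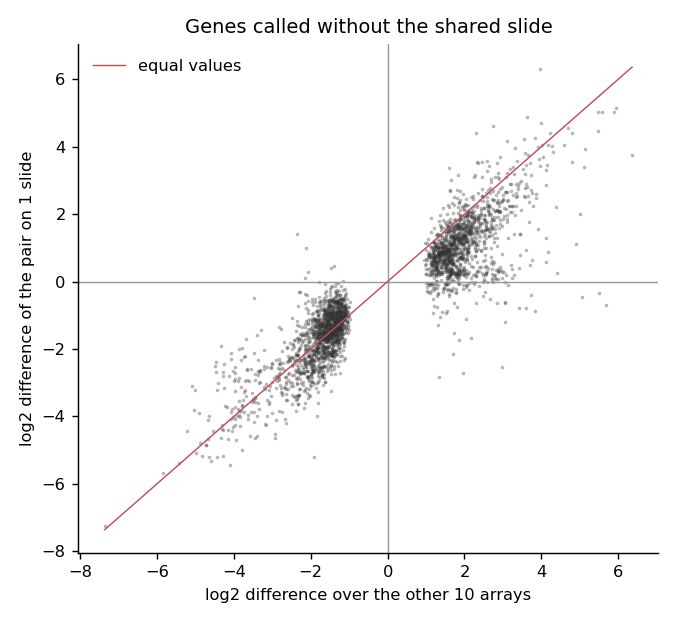
For each of 2845 genes called without the shared slide, the log2 difference over the other 10 arrays (5 against 5) is set against the difference of the pair on that slide, with a line of equal values. Most points lie in the quadrants of equal sign (2739), and higher genes lie mostly below the line, with a median of 1.03 in the pair and 1.85 over the 10 arrays.

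The neutron fraction was addressed by 3 direct comparisons of 6 against 6. Against 3 Gy x-rays no gene was called by limma (0 of 15076), while 3502 genes (23.2%) had an unadjusted p under 0.05 and the smallest adjusted p was 0.0774. Except for 1 array of each, these groups were scanned in different sessions. Without 5% replicate 5, which shared the slide, 389 genes were called. The 3 genes with the smallest p were Olfr149, an olfactory receptor gene (log2 difference -2.48, 95% interval -3.35 to -1.61), Kcnk16, a potassium channel gene well above background on no array at 5% (-2.22, -3.03 to -1.41), and Acvr2a, an activin receptor gene (1.72, 1.09 to 2.36), all at an adjusted p of 0.0774.

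For genes that separated 5% from controls, the difference from x-ray mice had these intervals. For Mt1 the difference, 5% minus x-rays, was 0.56 with an interval of -0.21 to 1.34, and for Ahsp 0.61 with -0.38 to 1.60. Mki67 differed by 0.35 (-0.55 to 1.26) and Cdkn1a by 0.50 (-0.49 to 1.49). Fcer2a differed by -1.72 (-2.62 to -0.81, adjusted p = 0.0774), while the median of the 23 B-cell markers was 0.48. Rps18 differed by -0.45 (-1.08 to 0.17), and over 60 ribosomal protein genes the median was -0.05. Respiratory chain genes had 16 of 54 higher at an unadjusted p under 0.05 and 0 lower, with a median of 0.34, where 11.2% of all genes were higher. Of 60 ribosomal protein genes 6 were lower, where 12% of all genes were, and none was called. Liver markers stood 3.71 higher at 5% than in x-ray mice (median of 8), and their part in these counts was not tested.

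Against the 15% field, of which 5 arrays shared the session of 5 at 5%, no gene was called by limma (0 of 15076). An unadjusted p under 0.05 was reached by 323 genes (2.14%), and the smallest adjusted p was 0.914. The smallest p belonged to ENSMUST00000119943 (1.5, 0.86 to 2.14), BC051226 (1.20, 0.63 to 1.77) and Ttll4, a tubulin ligase-like gene (1.44, 0.74 to 2.14). Ahsp differed by -0.34 (-1.09 to 0.42) and Cd79b by 0.47 (-0.53 to 1.46).

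Against the 25% field, scanned apart, 0 of 15076 were called by limma, 517 (3.43%) had an unadjusted p under 0.05, and the smallest adjusted p was 0.999. Dchs1, a cadherin gene, differed by 1.43 (0.87 to 1.99), ENSMUST00000177271 by 2.17 (1.25 to 3.08) and Lmntd2 by 1.17 (0.63 to 1.70). T-cell markers had 14 of 26 lower at 5% at an unadjusted p under 0.05 and natural killer markers 10 of 16, with medians of -0.73 and -0.79, where 1.93% of all genes were lower, and none was called. The intervals are wide, and these comparisons do not show that the fields act alike.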

How the data were processed

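Blood RNA of 36 mice, 6 per group, was hybridised singly to 1-colour Agilent mouse arrays. The authors deposited scanner files whose intensity values were background-corrected by Agilent Feature Extraction 12.0.2, and a table of log2 values normalized by the authors, used here as an alternative. Groups came from the sample titles.

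Processed intensities of 39429 probes were taken to log2, spots flagged as non-uniform were left out, the remaining spots of each probe were averaged, and the array median was subtracted. A probe entered if fewer than 25% of the 36 arrays had it non-uniform or not above background (21483 probes) and at least 20% of arrays had it 1.5-fold or more from its median (17953), and the brightest probe of a gene was kept, leaving 15076 genes. Groups were compared with limma 3.58.1 in R 4.3.3 on 12 arrays, called at p under 0.001 and Benjamini-Hochberg adjusted p under 0.05. Genes named were the 10 largest rises and 10 largest falls well above background on all arrays, the leading called members of each list, and the 3 smallest p of each direct comparison. Of 33 other probes past the background filter, for 27 genes so chosen, 2 had the opposite sign. The members and lists were chosen with earlier results of these data known. The scripts were tested on simulated data. Precision is limited by 6 arrays per group. Probe positions are of mm9 and promoters of GRCm38.p6. Alternatives covered scaling, background, filters, blocks, array weights, left-out arrays and liver level.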

Additional observations from a re-analysis of the deposited data

Results flagged for a closer look

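In 10 of 276 groups of 6 values examined, over 100 genes and 38 lists, the highest or the lowest mouse stood apart from the others of its group, where chance gives about 1 in 20. The value after each is the gap to the nearest mouse as a share of the group's range.

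Replicate 3 at 5% was lowest for Cr2 (0.669) and Klf1 (0.629). It was highest for H2-DMb2 (0.669) and for the mean levels of aminoacyl-tRNA ligases (0.677) and ribosome biogenesis genes (0.716). Replicate 6 at 5% was lowest for Tap1 (0.627). Among controls, replicate 3 was highest for Gm9924 (0.756) and lowest for Zfpm1 (0.631), and replicate 4 was highest for Mt2 (0.709) and lowest for Cd4 (0.644).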

How the results depend on the processing

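The count of genes called between 5% and controls, 3476, moved by over 1.5 times under 7 alternatives. It was 265 under normexp, 1232 under normexp centred on the genes tested (chosen after seeing the data), 2088 when mice were blocked by replicate number (replicate block), 35 when slide was a fixed block and 101 when scan session was, 5902 with array weights and 6706 at the adjusted p alone. The fixed blocks rest by construction on the 1 pair that shared a slide. Leaving out single arrays gave 2633 (without control replicate 2) to 4256 (without 5% replicate 3). The replicate numbers do not pair the mice: residuals of mice with the same number correlated at -0.16 on average, and 0 of 6 correlated best with their own number. For 5% against x-rays the count of 0 became 710 in 1 model over 36 arrays, 425 with the slide as a random block, 5 and 6 with the slide and session as fixed blocks, 970 with array weights, and 0 to 389 when single arrays were left out. For 5% against 25% it became 12 with array weights. Differences turned sign for Tfrc under normexp (-0.075) and for Gm9924 (-0.68) and Gm5106 (-0.33) under both fixed blocks, and the cause was not tested. Of the named genes' values under all alternatives 3054 kept their direction and their side of the threshold, 235 lost their call and 22 gained one. The losses lay mostly in a few settings. With the slide as a fixed block 73 of 100 genes lost their call, with the session as one 63, and under normexp 52 did. The liver covariate and the sets without the 3 arrays high in liver RNA or the shared slide were also chosen after seeing the data. Probes near background limit the dim genes, since the median probe of an array lay close to background.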

Other observations

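Olfactory receptor genes, not known for a role in blood, were tested for 118 of 1094 on the array. Of these 118, 2 were called higher and 1 lower, where 9.01% and 14% of all genes were. The median log2 difference was 0.23. Calls also varied with brightness. Of the 5026 dimmest genes 257 were called higher and 496 lower, of the middle 5025 genes 306 and 1002, and of the brightest 5025 genes 796 and 619. Of 5 heart and skeletal muscle genes tested none was called, with a median of 0.94.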
